A study of Mus musculus with 6 samples.

Results

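The genes described here are 37 genes of the integrated stress response, governed by the transcription factor ATF4, and of the unfolded protein response of the endoplasmic reticulum (ER). They were taken by gene symbol from 19938 genes measured on Affymetrix whole-transcript arrays, with 1 probeset (a set of probes read as 1 value) per gene, the one with the highest mean over the 6 arrays. All 37 symbols had a probeset, and no filter on low values was applied. By their known roles 22 belong to the ATF4 arm (transcription factors, stress effectors, serine and asparagine supply, amino acid transport) and 15 to the ER arm (sensors, folding enzymes and chaperones, degradation factors). The RNA came from mouse embryonic stem (ES) cells carrying the 2C::tomato fluorescent reporter, separated on a cell sorter by their fluorescence, with 3 samples of positive cells and 3 of negative cells, each set numbered 1 to 3. The titles mark all 6 samples as WT. The shared protocol names vehicle or 4OHT (4-hydroxytamoxifen) treatment for deleting Kdm1a and growth in ES-KOSR medium on gelatin, and does not say which of these treatments a sample had. In published work with this reporter, a promoter of an endogenous retrovirus that is active in the early embryo drives the fluorescent protein, so a positive cell is one in which that promoter is active.

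The integrated stress response slows general translation when a kinase phosphorylates the initiation factor eIF2, as happens when amino acids run short, when proteins misfold in the ER, or on viral infection. Translation of Atf4 messenger RNA then rises, and ATF4 switches on genes for amino acid uptake, serine and asparagine synthesis and, with DDIT3 (CHOP), for recovery or cell death. In the ER, the sensors PERK (Eif2ak3), IRE1 (Ern1) and ATF6 respond to unfolded protein, and the factors they release, spliced XBP1 and cleaved ATF6, switch on chaperones and degradation genes. ATF4, XBP1 and ATF6 are controlled at translation, splicing and cleavage, which RNA levels of a whole gene do not show.

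The promoter windows of the arms hold different short sequences, shown here because ATF4 and ATF6 are known to bind different elements. In RefSeq promoter windows of GRCm38.p6 (250 bases before to 50 after each start), 35 of the 37 genes had at least 1 window, 39 windows in all, and Atf6 and Slc7a5 had none. The C/EBP-ATF response element bound by ATF4 was searched as TGATGNAA and the ER stress element bound by ATF6 with NF-Y as CCAAT, then 9 bases of any kind, then CCACG, each on both strands. The first was present in 8 of 21 ATF4-arm genes and 1 of 14 ER-arm genes (Herpud1), against 4.51% of all 27025 genes with a window (3.97% of 32851 windows). The second was present in 6 of 14 ER-arm genes and 0 of 21 ATF4-arm genes, against 0.137% of all genes with a window (0.119% of windows). No window of a member held both of these forms, so no match of one overlapped the other. Other forms of either element were not searched for, and a window without a match may hold one. A match describes the letters and is not evidence of binding. The arms were drawn up from known roles in these responses, so their shares beside those of all genes describe the lists and are not a test.

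5 windows are given in full, 5′ to 3′ on the strand of the gene, with the letters of the element in capitals. Chac1 (chr2:119350992-119351291, plus strand) and Slc7a11 (chr3:50443564-50443863, minus strand) carry the ATF4 element, once and in a pair respectively, and Herpud1 (chr8:94386179-94386478, plus strand) is the ER-arm gene that carries it. Hspa5 (chr2:34771840-34772139, plus strand) carries 1 exact ER stress element and Hsp90b1 (chr10:86705395-86705694, minus strand) carries 2, with only the fixed letters in capitals. An element on the opposite strand appears as its reverse complement.
Chac1: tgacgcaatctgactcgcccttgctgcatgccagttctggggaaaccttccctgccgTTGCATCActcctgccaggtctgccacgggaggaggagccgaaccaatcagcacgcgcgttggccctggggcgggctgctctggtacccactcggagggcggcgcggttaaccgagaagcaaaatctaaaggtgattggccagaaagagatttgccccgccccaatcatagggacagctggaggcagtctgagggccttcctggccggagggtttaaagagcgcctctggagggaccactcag
Slc7a11: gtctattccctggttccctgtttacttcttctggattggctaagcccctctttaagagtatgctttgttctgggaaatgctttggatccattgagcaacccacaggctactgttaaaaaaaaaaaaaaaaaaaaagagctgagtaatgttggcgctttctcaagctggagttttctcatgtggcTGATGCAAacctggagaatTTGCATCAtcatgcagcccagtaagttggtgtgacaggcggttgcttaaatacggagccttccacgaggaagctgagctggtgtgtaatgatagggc
Herpud1: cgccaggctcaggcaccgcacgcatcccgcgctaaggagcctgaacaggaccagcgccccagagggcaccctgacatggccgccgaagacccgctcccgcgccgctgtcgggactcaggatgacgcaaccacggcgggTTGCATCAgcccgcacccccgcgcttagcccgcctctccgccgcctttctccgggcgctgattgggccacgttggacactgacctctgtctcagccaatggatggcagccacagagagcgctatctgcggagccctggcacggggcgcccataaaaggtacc
Hspa5: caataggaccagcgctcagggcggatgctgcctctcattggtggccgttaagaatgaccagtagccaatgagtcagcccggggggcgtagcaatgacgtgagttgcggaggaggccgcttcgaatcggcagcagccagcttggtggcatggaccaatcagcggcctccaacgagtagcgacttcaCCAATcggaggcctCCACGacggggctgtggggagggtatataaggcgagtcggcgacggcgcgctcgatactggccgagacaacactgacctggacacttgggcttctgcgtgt
Hsp90b1: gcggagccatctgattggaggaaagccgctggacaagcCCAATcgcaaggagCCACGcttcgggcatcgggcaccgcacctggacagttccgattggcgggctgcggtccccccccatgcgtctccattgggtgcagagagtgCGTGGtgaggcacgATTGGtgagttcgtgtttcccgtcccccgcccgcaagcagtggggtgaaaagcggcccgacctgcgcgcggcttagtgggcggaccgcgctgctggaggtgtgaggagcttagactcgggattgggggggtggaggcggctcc

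The sites of the other members with a match are given with 6 bases on either side, each on the strand that reads as the element. They show how the ATF4 element varies at its N and how the spacer of the ER stress element differs from gene to gene.
Atf3: acttggTGATGCAAgtgcga
Nupr1: cctgtcTGATGCAAtctggc
Trib3: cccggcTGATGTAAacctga
Asns: gccacaTGATGAAActtccc
Pck2: agatacTGATGTAActttga
Vldlr: gagcgcTGATGCAActattg
Calr: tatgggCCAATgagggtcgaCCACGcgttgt
Canx: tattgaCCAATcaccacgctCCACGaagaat
Pdia6: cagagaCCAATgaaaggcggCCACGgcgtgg
Dnajc3: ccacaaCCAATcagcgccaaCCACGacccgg

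Across the whole array no gene passed the comparison of positive with negative cells. In the limma fit the number of the 19938 genes below an adjusted p of 0.05 was 0 (0.0%), and when replicate number entered as a block it was again 0 (0.0%). At an unadjusted p under 0.05, 1.95% of genes were higher in positive cells and 2.46% lower, and with the block 5.4% and 6.61%. Kdm1a lay between 10.91 and 11.25 on the log2 scale in the 6 arrays, with a difference of -0.12 (SE 0.12). The 10 ES cell markers had list means of 12.11 to 12.40 over the negative arrays and 11.95 to 12.32 over the positive ones. All 7 markers of the two-cell state were higher in positive cells, with mean levels of 8.17, 11.28 and 7.06 for positive arrays 1, 2 and 3. Their negative arrays ranged over 5.43 to 5.66, and positive array 2 stood highest. Of 11 feeder fibroblast markers 3 were higher and 8 lower, with list means of 7.18 to 7.71 (negative) and 6.73 to 7.67 (positive). Of 9 primitive endoderm markers 2 were higher and 7 lower, with list means of 8.09 to 8.32 and 7.69 to 8.14. The feeder list mean was highest in replicate 2 of both groups, where 5 of the 11 markers (Col1a2, Postn, Pdgfrb, Acta2 and Tagln) had both arrays above the other 4. Acta2 and Tagln, which encode smooth muscle actin and transgelin, differed there most, by 2.85 and 2.90, while Col3a1, Thy1 and Dcn were at -0.32, -0.24 and -0.21. Whether these cells or the two-cell markers have a part in the values below was not tested. In such bulk samples fewer cells of a type and less RNA per cell cannot be told apart.

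The stress and unfolded protein response genes differed little between reporter-positive and reporter-negative cells, and the ER arm lay slightly higher in positive cells than the ATF4 arm. Log2 differences, always positive minus negative, ran from -0.28 for Chac1 to 0.34 for Ddit3, which is 0.82-fold to 1.27-fold. The median difference was 0.15 over the 15 ER-arm genes and -0.039 over the 22 ATF4-arm genes, beside -0.043 over all genes. Of the ER arm 12 genes were higher and 3 lower, and of the ATF4 arm 9 were higher and 13 lower, while 39.8% of all genes were higher. None of the 37 genes passed the test with or without the block, and without it none had an unadjusted p under 0.05. With the block 2 members were higher (Ddit3 and Atf6) and 2 lower (Cebpg and Chac1) at an unadjusted p under 0.05, shares of the 37 genes close to the 5.4% and 6.61% of all genes.

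All 3 positive arrays lay above all 3 negative arrays for 4 members, Ddit3, Eif2ak3, Hsp90b1 and Pdia4, and below them for 0. Over all genes these shares were 4.08% and 7.15%. Within same-numbered arrays, 9 of 15 ER-arm genes and 4 of 22 ATF4-arm genes were higher in the positive array of every pair, against 15.1% of all genes. Lower in every pair were 0 of 15 ER-arm genes and 7 of 22 ATF4-arm genes, against 23.7% of all genes. The share of higher genes varied with brightness. Among the 9969 genes left once the dimmest 50% were removed, the median difference was 0.0056 and 51.7% were higher. They include all 15 ER-arm genes and 19 of the 22 ATF4-arm genes. Of these 9969 genes 22.1% were higher in every pair and 15.2% lower in every pair. All 3 positive arrays lay above all 3 negative arrays for 5.36% of them.

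**Figure D1:**
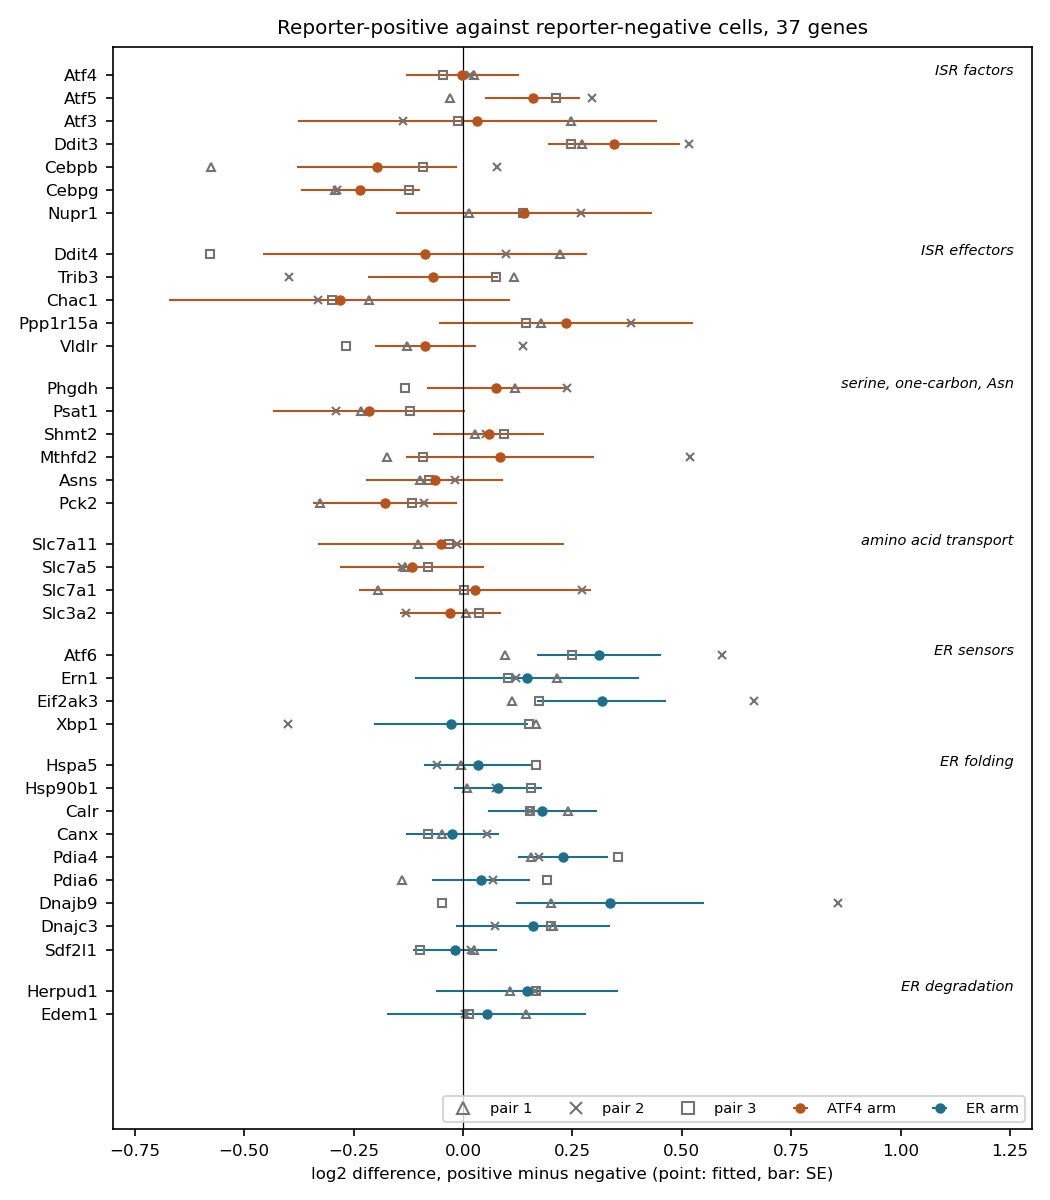
Log2 difference of positive minus negative cells (horizontal axis) for each of the 37 genes, grouped by role. Filled points are the fitted difference with its SE as a bar, and open symbols and crosses are the 3 same-numbered pairs. ER-arm genes lie mostly right of 0, with a median of 0.15, and ATF4-arm genes on both sides, with a median of -0.039.

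Among the transcription factors of the integrated stress response, the Atf4 transcript itself was level between the groups, Ddit3 had the highest difference of all members, and Cebpg was among the lowest. Atf4 stood at 9.13, 9.21 and 9.44 in negative arrays 1, 2 and 3 and 9.15, 9.23 and 9.40 in positive arrays 1, 2 and 3. Both groups span the same range, and the difference was -0.0013 (SE 0.13). Ddit3, which encodes the CHOP factor that links lasting ER stress to cell death, stood at 7.62, 7.83 and 7.72 in negative arrays 1, 2 and 3 and 7.89, 8.35 and 7.96 in positive arrays 1, 2 and 3. Every positive array lay above every negative one, with positive array 2 highest, and the means were 8.07 ± 0.25 (SD, n = 3) for the positive arrays and 7.72 ± 0.11 (SD, n = 3) for the negative ones. Ddit3 thus differed by 0.34 (SE 0.15), short of the threshold (limma adjusted p = 0.910, and 0.399 with the replicate block, unadjusted 0.015). Without positive array 2 it was 0.20.

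Cebpg, a C/EBP factor that pairs with ATF4, stood at 8.03, 8.32 and 8.15 in negative arrays 1, 2 and 3 and 7.73, 8.03 and 8.03 in positive arrays 1, 2 and 3. Its pair differences were -0.29, -0.29 and -0.12, all below 0, and it differed by -0.23 (SE 0.14). Atf5, a factor translated by the same upstream reading frame logic as ATF4, differed by 0.16 (SE 0.11) and Cebpb, a C/EBP factor induced in stress, by -0.20 (SE 0.18). Cebpb had its lowest level in positive array 1. Nupr1, a small stress-induced chromatin protein, differed by 0.14 (SE 0.29) and Atf3, a stress-induced repressor, by 0.033 (SE 0.41). For Cebpb, Nupr1 and Atf3 the SD in positive arrays, at 0.35, 0.40 and 0.57, exceeded the size of the difference.

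The effectors of the response lay on both sides of 0, with 1 of 5 higher and 4 lower. Chac1, a glutathione-degrading enzyme and a sensitive ATF4 target, stood at 9.25, 8.54 and 9.74 in negative arrays 1, 2 and 3 and 9.03, 8.21 and 9.44 in positive arrays 1, 2 and 3. Its pair differences were -0.21, -0.33 and -0.30, while the levels of both groups ranged over more than a log2 unit with the replicate number. Its difference of -0.28 (SE 0.39) had a limma adjusted p of 0.949, and 0.399 with the block. Leaving out 1 array changed it from -0.60 without negative array 2 to 0.060 without positive array 2. Each of these comparisons keeps the other replicate 2 array, low in both groups, without its partner.

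Ppp1r15a (GADD34), the phosphatase subunit that reverses eIF2 phosphorylation, stood at 8.49, 9.18 and 8.58 in negative arrays 1, 2 and 3 and 8.67, 9.57 and 8.72 in positive arrays 1, 2 and 3. Replicate 2 was highest in both groups and the positive array was the higher one of each pair. Its difference was 0.24 (SE 0.29). Once positive array 2 alone was left out the difference was -0.055, but that comparison keeps the high negative array 2 without its partner. The pair differences were 0.18, 0.38 and 0.15. Trib3, a pseudokinase that feeds back on ATF4 and CHOP, differed by -0.068 (SE 0.15), Ddit4 (REDD1), an inhibitor of mTORC1, by -0.086 (SE 0.37), and Vldlr, a lipoprotein receptor induced through PERK and ATF4, by -0.086 (SE 0.12). Ddit4 and Trib3 were not of 1 sign over the pairs, at 0.22, 0.099 and -0.58 for Ddit4 and 0.12, -0.40 and 0.076 for Trib3.

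Serine, one-carbon and asparagine supply showed 3 genes higher and 3 lower, from -0.22 to 0.085. Psat1, the aminotransferase of serine synthesis, stood at 12.20, 11.67 and 12.14 in negative arrays 1, 2 and 3 and 11.96, 11.38 and 12.02 in positive arrays 1, 2 and 3. It was lower in positive cells in each pair and lowest in replicate 2 of both groups, and differed by -0.22 (SE 0.22). Pck2, the mitochondrial PEP carboxykinase, stood at 9.31, 8.82 and 9.18 in negative arrays 1, 2 and 3 and 8.98, 8.73 and 9.07 in positive arrays 1, 2 and 3. Its pair differences were -0.33, -0.089 and -0.12, also all below 0, and it differed by -0.18 (SE 0.16). Asns, asparagine synthetase and a standard ATF4 target, differed by -0.064 (SE 0.16), Phgdh, the first enzyme of serine synthesis, by 0.074 (SE 0.16), Shmt2, which passes a carbon from serine to folate in mitochondria, by 0.059 (SE 0.13), and Mthfd2, the mitochondrial folate dehydrogenase, by 0.085 (SE 0.22). The value of Mthfd2 rested on pair 2, with pairs at -0.17, 0.52 and -0.090. A further probeset was annotated to both Phgdh and Gm6756 and was not used.

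Amino acid transporters were close to level, with 1 of 4 higher. Slc7a5 (LAT1), the carrier of large neutral amino acids, stood at 13.00, 12.57 and 12.82 in negative arrays 1, 2 and 3 and 12.87, 12.44 and 12.74 in positive arrays 1, 2 and 3. It differed by -0.12 (SE 0.16) and its pairs by -0.13, -0.14 and -0.079. Slc7a11 (xCT), the cystine importer that forms the cystine-glutamate exchanger with Slc3a2, stood at 6.17, 5.28 and 5.84 in negative arrays 1, 2 and 3 and 6.07, 5.27 and 5.81 in positive arrays 1, 2 and 3. The same-numbered arrays nearly coincided, and the difference was -0.049 (SE 0.28). Slc7a11 was dim, with its mean level at percentile 22.5 of all genes measured. Slc3a2, the shared heavy chain of these carriers, differed by -0.029 (SE 0.11), and Slc7a1, the cationic amino acid carrier for arginine and lysine, by 0.027 (SE 0.27).

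The sensors of the ER were higher in positive cells for 3 of 4 genes, with a median difference of 0.23. Eif2ak3, which encodes the eIF2 kinase PERK, stood at 8.85, 8.65 and 8.70 in negative arrays 1, 2 and 3 and 8.96, 9.32 and 8.87 in positive arrays 1, 2 and 3. The groups did not overlap, although positive array 3 exceeded negative array 1 by little, and the difference was 0.32 (SE 0.15) or 1.25-fold (limma adjusted p = 0.910, 0.420 with the block). Atf6, whose protein is cut in the Golgi to release a transcription factor, stood at 10.14, 9.87 and 9.85 in negative arrays 1, 2 and 3 and 10.24, 10.46 and 10.10 in positive arrays 1, 2 and 3. Each positive array exceeded its same-numbered negative array, the groups overlapped at positive array 3 and negative array 1, and the difference was 0.31 (SE 0.14) (limma adjusted p = 0.910, 0.413 with the block, unadjusted 0.046). Both genes differed most in pair 2, by 0.67 and 0.59, the pair in which the two-cell markers were also furthest apart. With both replicate 2 arrays left out the differences were 0.14 for Eif2ak3 and 0.17 for Atf6.

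Ern1, which encodes IRE1, the kinase and endonuclease that splices Xbp1, differed by 0.15 (SE 0.26), with pairs at 0.21, 0.12 and 0.10. Xbp1 stood at 11.17, 11.23 and 11.30 in negative arrays 1, 2 and 3 and 11.34, 10.83 and 11.45 in positive arrays 1, 2 and 3. Positive array 2 had the lowest level of the 6 and positive array 3 the highest, and the difference was -0.027 (SE 0.18). In pair 2, then, Xbp1 differed by -0.40 while Eif2ak3 and Atf6 were higher. The probeset does not separate spliced from unspliced Xbp1.

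Chaperones and folding enzymes of the ER were higher for 7 of 9 genes, with a median difference of 0.080. Hspa5 (BiP), the main ER chaperone and the usual readout of the unfolded protein response, stood at 12.62, 12.53 and 12.31 in negative arrays 1, 2 and 3 and 12.62, 12.47 and 12.47 in positive arrays 1, 2 and 3. Negative array 3 was the lowest and the others lay close together, so the groups overlapped, and the difference was 0.034 (SE 0.12). Dnajb9 (ERdj4), a cochaperone of BiP and a target of XBP1, stood at 9.62, 9.70 and 9.88 in negative arrays 1, 2 and 3 and 9.82, 10.56 and 9.84 in positive arrays 1, 2 and 3. Only positive array 2 stood apart, and the difference of 0.34 (SE 0.21) became 0.094 without it. Pdia4 (ERp72), a disulfide isomerase, stood at 11.95, 11.87 and 11.83 in negative arrays 1, 2 and 3 and 12.11, 12.04 and 12.18 in positive arrays 1, 2 and 3. All positive arrays exceeded all negative arrays, and the difference of 0.23 (SE 0.10), from 12.11 ± 0.07 (SD, n = 3) for the positive arrays and 11.88 ± 0.07 (SD, n = 3) for the negative ones, did not rest on 1 pair, with pairs at 0.16, 0.17 and 0.35. It did not pass (limma adjusted p = 0.910, 0.420 with the block). A second, dimmer probeset of Pdia4 differed by 0.25, in the same direction, but its groups overlapped. Its negative arrays 1, 2 and 3 stood at 7.76, 7.34 and 7.43. Positive arrays 1, 2 and 3 stood at 8.08, 7.33 and 7.86, so positive array 2 was the lowest of all arrays.

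Calr (calreticulin), the lectin chaperone of the ER lumen, differed by 0.18 (SE 0.12) and was higher in each pair, by 0.24, 0.15 and 0.15. Its membrane-bound partner Canx (calnexin) differed by -0.024 (SE 0.11). Hsp90b1 (GRP94), the ER form of HSP90, differed by 0.080 (SE 0.10) without overlap between the groups, though in pair 1, whose arrays were the closest, by only 0.0088. Dnajc3 (p58IPK), a BiP cochaperone that also inhibits PERK, differed by 0.16 (SE 0.18), Pdia6, a disulfide isomerase, by 0.040 (SE 0.11) and Sdf2l1, a small ER stress-induced protein, by -0.018 (SE 0.097). The 6 values of Sdf2l1 lay between 11.01 and 11.11.

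Both ER-associated degradation genes were slightly higher in positive cells. Herpud1, a membrane scaffold of the degradation complex, stood at 10.00, 9.54 and 10.11 in negative arrays 1, 2 and 3 and 10.11, 9.70 and 10.28 in positive arrays 1, 2 and 3. The positive array was higher in each pair, by 0.11, 0.16 and 0.17, with both groups lowest in replicate 2, and the difference was 0.15 (SE 0.21). Edem1, a mannosidase-like protein that hands glycoproteins to degradation, stood at 10.25, 10.90 and 10.32 in negative arrays 1, 2 and 3 and 10.40, 10.90 and 10.33 in positive arrays 1, 2 and 3. Replicate 2 was highest in both groups, and the difference was 0.054 (SE 0.23). For both genes the range of the replicate means exceeded the difference between the groups, at 0.57 for Herpud1 and 0.58 for Edem1.

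**Figure D2:**
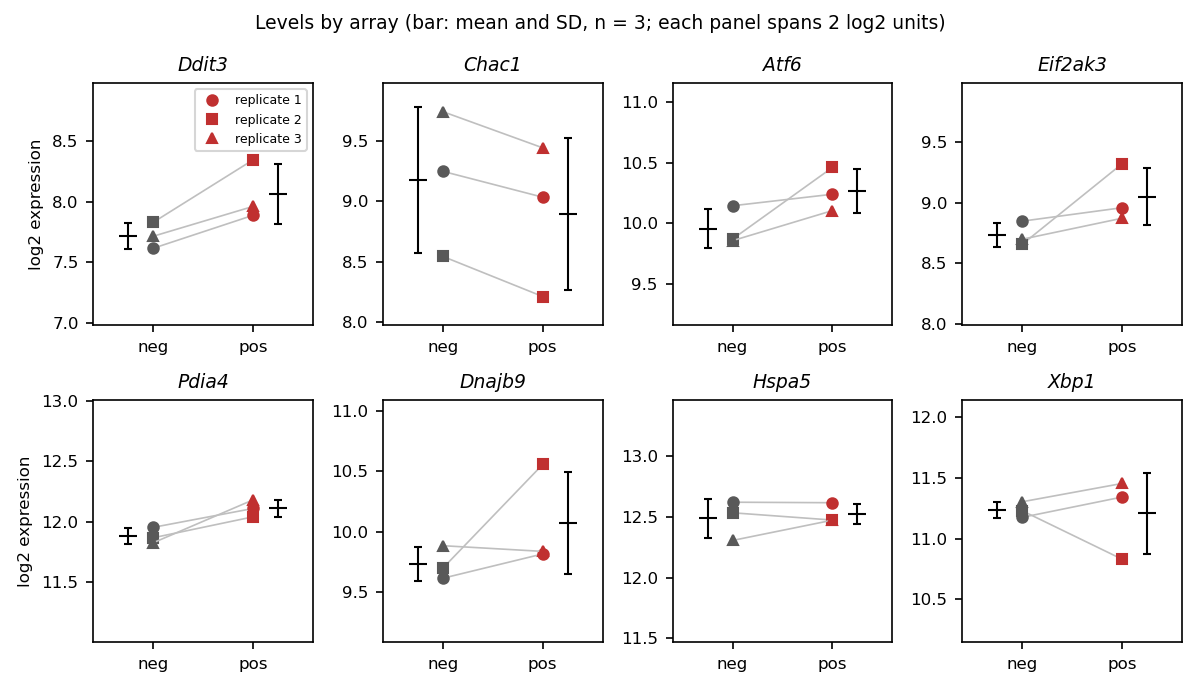
Log2 expression of 8 members in the 3 negative and 3 positive arrays, with grey lines joining same-numbered arrays and bars giving mean and SD (n = 3). Ddit3, Eif2ak3 and Pdia4 show no overlap between groups, Dnajb9 stands apart in positive array 2 alone at 10.56, and Chac1 is lower by 0.21 to 0.33 along every line while its level differs far more between lines.

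Set side by side over the 3 same-numbered pairs, the ER arm exceeded the ATF4 arm in each. Over pairs 1, 2 and 3 the ER arm had median differences of 0.11, 0.075 and 0.16. For the ATF4 arm they were -0.064, 0.035 and -0.062, beside -0.023, -0.051 and -0.0065 for all genes. The ATF4 arm minus the ER arm was thus -0.17, -0.040 and -0.22, and -0.19 over all arrays. In pair 1, 12 of 15 ER-arm genes and 10 of 22 ATF4-arm genes were higher in the positive array. The counts were 13 and 12 in pair 2 and 12 and 8 in pair 3. Because the arms were drawn up with results of these arrays known, this contrast is a description and was given no test.

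The ER-arm median varied with the arrays included. Without positive array 2 the ER-arm median was 0.066 and without negative array 3 it was 0.051, while without negative array 2 it was 0.22. With a second quantile normalization it was 0.083. It stayed above 0 in each of these cases, and the ATF4 arm minus the ER arm stayed below 0.

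**Figure D3:**
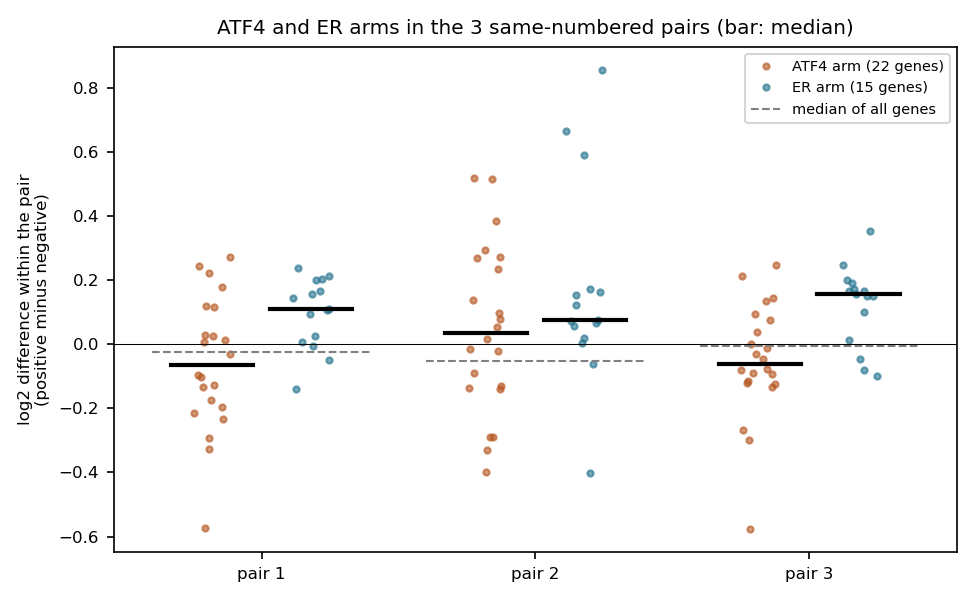
Log2 difference within each same-numbered pair (vertical axis) for the genes of the ATF4 arm and the ER arm, 1 point per gene, with black bars at the arm medians and a dashed line at the median of all genes. The ER-arm bar lies above the ATF4-arm bar in each pair, by little in pair 2, where the medians are 0.075 and 0.035.

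As across the array, the range over replicate numbers was larger than the reporter difference for most of these genes. For 29 of the 37 genes the range of the 3 replicate means, each over a positive and a negative array, exceeded the difference between positive and negative cells, a share close to the 80.9% of all genes. The median range was 0.35 and the median size of the difference 0.086. Over all genes these were 0.27 and 0.12. The measures are unlike, since a range over 3 means of fewer arrays tends to be the larger even without a replicate effect. They therefore do not show which source of variation is greater. The labels do not say what the numbers mark.

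Both replicate 2 arrays lay above the other 4 for 8 of the 37 members, against 17.8% of all genes, and below them for 10, against 21.8%. These shares are near those of all genes, so the values that follow describe the members and are not particular to them. The 8 high members were Atf3, Ppp1r15a, Ddit4, Ern1, Edem1, Dnajc3, Phgdh and Cebpb. Atf3 led them, standing at 7.64, 8.94 and 7.76 in negative arrays 1, 2 and 3 and 7.89, 8.80 and 7.75 in positive arrays 1, 2 and 3, so that replicate 2 exceeded the other arrays by 1.11 on average. Its excess was 0.76 for Ppp1r15a, 0.75 for Ddit4, 0.67 for Ern1 and 0.58 for Edem1.

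The 10 low members were Chac1, Nupr1, Slc7a11, Psat1, Slc7a1, Herpud1, Pck2, Slc7a5, Shmt2 and Slc3a2. Replicate 2 minus the other arrays was -0.99 for Chac1, -0.75 for Nupr1, -0.70 for Slc7a11, -0.55 for Psat1 and -0.52 for Slc7a1. All 4 amino acid transporters and 3 of 6 serine, one-carbon and asparagine genes were among them, whereas Herpud1 was the only one of the ER arm. Nupr1 stood at 9.44, 8.65 and 9.57 in negative arrays 1, 2 and 3 and 9.45, 8.92 and 9.71 in positive arrays 1, 2 and 3, with the low values in both replicate 2 arrays. Atf4, by contrast, had its highest level in replicate 3 of both groups, and its replicate 2 minus other arrays was -0.062. Atf3, Nupr1 and the order of these genes were picked out after their values were seen. Both replicate 1 arrays lay above or below the other 4 for 10 members, against 16.8% of all genes, and both replicate 3 arrays for 7, against 13.3%. Those 10 members include all 4 amino acid transporters, which were highest in replicate 1, so replicate 2 was not the only number apart for them.

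**Figure D4:**
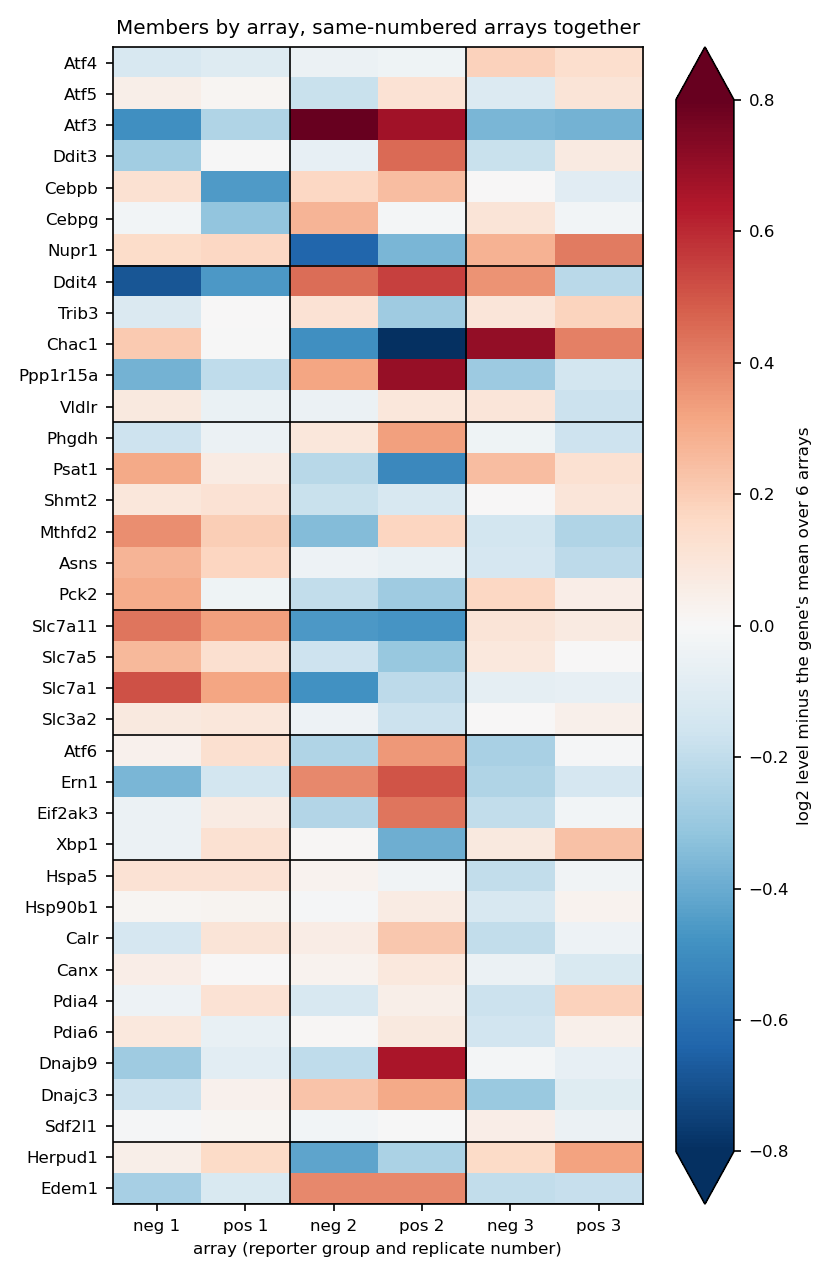
Log2 level of each member minus its own mean over the 6 arrays (colour, clipped at the ends of the bar), with same-numbered arrays side by side and lines between the 7 role groups. Atf3 and Edem1 are high in both replicate 2 arrays and Slc7a11 is low in both.

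**Figure D5:**
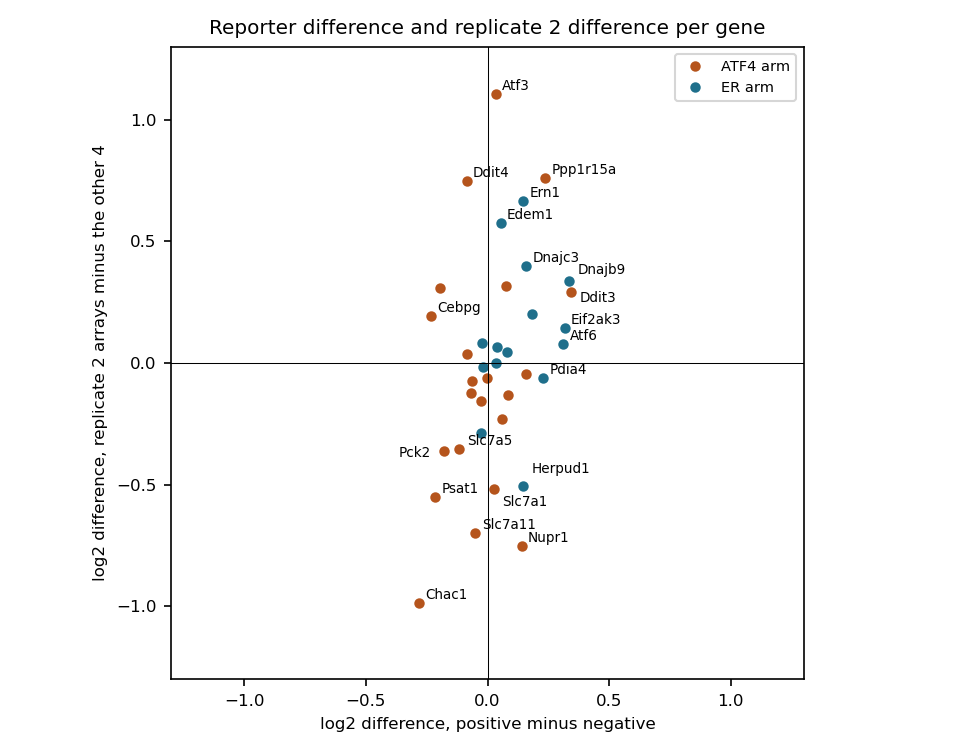
Log2 difference of positive minus negative cells (horizontal) against the mean of the 2 replicate 2 arrays minus the mean of the other 4 (vertical), 1 point per gene on equal scales. The vertical spread, from -0.99 for Chac1 to 1.11 for Atf3, exceeds the horizontal spread from -0.28 to 0.34.

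Beside the promoter elements printed above, the differences ran as follows. The 8 ATF4-arm genes with the ATF4 element differed by a median of -0.066, from -0.28 (Chac1) to 0.14 (Nupr1), with 2 higher. The 6 genes with the ER stress element differed by a median of 0.060, from -0.024 (Canx) to 0.18 (Calr), with 5 higher. In replicate 2, 5 of the 9 genes with the ATF4 element (Chac1, Nupr1, Slc7a11, Pck2 and Herpud1) lay below all other arrays, against the 21.8% of all genes, and 1, Atf3, above them. Within the ATF4 arm, 4 of the 8 genes with the element were low in this way, beside 9 of all 22 genes of the arm. The low replicate 2 was not limited to genes with the element, since Psat1, Slc7a1, Shmt2 and Slc3a2 were also low and had windows without it, and Slc7a5 had no window. Sites of the 2 kinds were looked for only in these windows and only in the forms given, and a gene without one may carry it elsewhere or in another form.

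Other genes of the same pathways had medians near 0 as well, and 0 of them passed the limma test over all genes. These lists were drawn up with earlier results of these arrays known. The eIF2 kinases and initiation factors had 10 of 12 measured genes higher, with a median of 0.058, Eif2s2 (a subunit of eIF2) at 0.20 (SE 0.12) and Eif2b1 (a subunit of its exchange factor) at -0.072 (SE 0.15). Cytosolic tRNA synthetases had 6 of 18 higher, with a median of -0.030, Tars at 0.18 (SE 0.15) and Vars at -0.22 (SE 0.12), the threonine and valine enzymes. Of the mitochondrial unfolded protein response 4 of 8 were higher, with a median of -0.013, Trap1 (a mitochondrial HSP90) at 0.038 (SE 0.095) and Clpp (a matrix protease) at -0.16 (SE 0.19).

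Further ATF4 targets had 10 of 21 measured genes higher and a median of -0.031. Sesn2 (sestrin 2), a stress-induced inhibitor of mTORC1, had the largest positive value, 0.43 (SE 0.14), with pairs at 0.36, 0.69 and 0.25. Vegfa, an angiogenic factor that also answers to hypoxia, had the largest negative value, -0.48 (SE 0.20), with pairs at -0.19, -0.67 and -0.58. These 2 had an unadjusted p under 0.05 (limma, 0.020 and 0.049) and an adjusted p of 0.910 and 0.910.

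Further ER stress targets had 18 of 30 higher and a median of 0.077, between those of the arms. Of these 30 genes 11 were higher in every pair and 1 lower in every pair, against 15.1% and 23.7% of all genes. Without the dimmest 50% of genes these background shares were 22.1% and 15.2%. Erlec1, an ER lectin of the degradation pathway, was at 0.35 (SE 0.18), and Ero1a, the ER oxidase, at -0.18 (SE 0.22). Replicate 2 also stood apart for many genes of these lists. Both replicate 2 arrays lay above the other 4 for 15 of 30 ER stress targets and below them for 1. For tRNA synthetases the counts were 1 above and 10 below of 18, and for further ATF4 targets 0 above and 7 below of 21, beside the 17.8% and 21.8% of all genes.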

How the data were processed

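The log2 expression values of 35556 probesets on 6 arrays were used as deposited by the authors, made with RMA in Affymetrix Expression Console per the submitters' processing notes. RMA corrects background, equalises the arrays' distributions and summarises probes, so it draws dim probesets together and removes differences in total RNA. The sources used here do not give software versions, a genome build or an annotation for that step. Array medians lay between 6.95 and 7.04, arrays correlated at r of 0.969 to 0.995 across genes, and precision is limited by having 3 arrays a group.

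Symbols came from GEO's platform annotation (21789 probesets with 1 symbol, 1621 with several, 12146 not listed here and unnamed), checked by identifier against RefSeq genes of GRCm38.p6 (21698 matched, 0 changed). Groups and numbers came from the titles. The reporter groups were fitted with limma 3.58.1 under R 4.3.3 (lmFit, eBayes, two-sided, Benjamini-Hochberg over 19938 genes), and the fit was tested on simulated data. Nothing says that the samples of a group were separate cultures, so p-values reflect sample-to-sample spread only, possibly technical. Same-numbered positive and negative arrays deviated together from their group means (r = 0.55, 0.55 and 0.46 across genes for numbers 1, 2 and 3, against -0.52 to 0.20 for other pairings), so the numbers were taken as pairing the samples and the fit with the number as a block is given beside the other.

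Members, arms and lists were chosen with earlier results of these data known. Values in every array are given for Atf4, Ddit3, Hspa5, Xbp1 and the 2 members of each role with the largest difference; each companion list names its highest and lowest gene. Marker lists were ES cell, two-cell, feeder fibroblast and primitive endoderm genes. The background without the dimmest 50% of genes, replicate number counts and promoter elements were added after seeing the values. Alternatives were a filter on the dimmest 30%, scaling, all probesets, array weights, an intensity trend, the block and leaving out arrays.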

Additional observations from a re-analysis of the deposited data

How the results depend on the processing

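No member and no gene of the array passed the limma test under any of the 16 alternatives (array filters, scalings, probeset rule, weights, trend, replicate block, arrays left out). Members with an unadjusted limma p under 0.05 numbered 0 without the block and 4 with the replicate block (Ddit3 and Atf6 higher, Cebpg and Chac1 lower). They numbered 10 with array weights, 1 with a second quantile normalization and 1 with an intensity trend. With 1 array or pair left out they numbered 0 to 2. With the block 5.4% of all genes were higher and 6.61% lower. For the other alternatives the share of all genes was not counted, so those counts are not a result about the members. Members without overlap between groups numbered 4, then 3 with the mean of all probesets and 2 with median centring or a second quantile normalization. They numbered 5 to 15 with arrays left out, where fewer arrays make overlap rarer by construction. The ER-arm median of 0.15 was 0.083 with a second quantile normalization and 0.051 to 0.22 with arrays left out, the ATF4-arm median -0.084 to 0.013, and the ATF4 arm minus the ER arm -0.30 to -0.056. The block changed no other call.

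Of 591 member differences recomputed, 64 changed sign, in 24 genes, and 13 genes kept their sign throughout. None of these genes had passed the test. A second quantile normalization gave Atf3 -0.015, Slc7a1 -0.020, Hspa5 -0.0015. Array weights gave Nupr1 -0.0072, Phgdh -0.023, Asns 0.10, Slc7a11 0.060, Slc3a2 0.044, Xbp1 0.061. With 1 array or pair left out the log2 differences that changed sign ranged over Atf3 -0.29 to 0.44, Asns -0.17 to 0.055, Slc7a11 -0.29 to 0.17, Slc3a2 -0.080 to 0.049, Edem1 -0.13 to 0.26, Nupr1 -0.14 to 0.36, Ddit4 -0.45 to 0.16, Shmt2 -0.017 to 0.14, Mthfd2 -0.13 to 0.29, Slc7a1 -0.21 to 0.29, Herpud1 -0.026 to 0.31, Atf4 -0.070 to 0.090, Chac1 -0.60 to 0.060, Xbp1 -0.15 to 0.16, Hspa5 -0.056 to 0.10, Pdia6 -0.036 to 0.13, Sdf2l1 -0.040 to 0.022, Trib3 -0.17 to 0.097, Ppp1r15a -0.055 to 0.45, Phgdh -0.071 to 0.18, Slc7a5 -0.23 to 0.0063, Ern1 -0.069 to 0.37, Canx -0.071 to 0.032, Vldlr -0.20 to 0.0048. The cause was not tested. With 3 arrays a group and no gene past the test, a missed threshold does not show that the groups are alike.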
